A study of Homo sapiens with 6 samples.

Results

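The genes described here handle zinc: 5 metallothioneins (MT1E, MT1F, MT1G, MT1X and MT2A), their transcription factor MTF1, the zinc exporters SLC30A1 and SLC30A10, and the zinc importer SLC39A10. They were chosen by name, as the 9 of 58735 deposited rows whose Ensembl identifiers carry these symbols in GENCODE. All 9 had a row, and 7 had enough counts to be tested. RNA sequencing was done on RKO, a single established human cell line from a colorectal carcinoma, treated with EZA or with the solvent DMSO. Each treatment had 3 replicates that the study calls biological. What EZA stands for is not stated in the labels, nor are the dose and the length of treatment.

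Metallothioneins are small cysteine-rich proteins that bind zinc and copper in the cytosol. When free zinc rises, MTF1 binds metal response elements in the promoters of metallothionein genes and of SLC30A1, which moves zinc out of the cell, and raises their transcription. SLC39A10 brings zinc in, and MTF1 is known to hold its transcription down when zinc is plentiful. Metallothionein genes also respond to cadmium, oxidants and glucocorticoids.

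The libraries held 14070611 to 18840954 counts. The labelled cell type was checked against its markers: of 10 markers of colon epithelium, KRT18, KRT8, CDX2 and EPCAM were present, CDH1 and CDX1 were at 0, and KRT19, KRT20, VIL1 and LGALS4 had at most 1 count in a library. Summed markers came to 0 to 5 counts for fibroblasts, 0 to 36 for leukocytes, nearly all from CD68, and 0 to 10 for endothelium; 4 of 6, 5 of 6 and 1 of 4 of these markers were at 0 everywhere. EZA replicate 3 stood apart: mitochondrial genes made up 0.203% of all counts there (0.201% to 0.206% by a 95% Wilson interval for counting error) and 3.685% to 5.017% of the counts of the other 5 libraries. Several results that move with this library are given with and without it. In bulk RNA, fewer cells of a type and less RNA per cell cannot be told apart.

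After EZA, SLC39A10 transcript was 2.41-fold lower, and this was the 1 member of the 7 tested that passed the test, against 17.7% of the 13503 genes tested (edgeR's quasi-likelihood test with Benjamini-Hochberg adjustment, adjusted p below 0.05). MT2A and MT1E were 1.27-fold and 1.36-fold higher, but both missed the threshold. Their groups did not overlap, with every EZA library higher, as in 21.0% of all genes tested. MT1X, MT1F, SLC30A1 and MTF1 had overlapping groups. MT1G and SLC30A10 had no count in any library. The median log2 fold change of the 7 tested members was 0.16, beside -0.01 over all genes tested. Without EZA replicate 3, MT1E, MT2A and MT1X passed as well, so that 3 members were higher and 1 lower, against 38.4% of all genes called in that fit, 19.1% higher and 19.2% lower.

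Metallothionein promoters are known for repeated metal response elements, the sequence that MTF1 reads. RefSeq start sites (GRCh38.p14) were at hand for 6 of the 9 members: MT1X, MT2A, MTF1, SLC30A1, SLC30A10 and SLC39A10. The core of the metal response element was searched as TGCACNC or TGCGCNC on both strands of the 250 bases before each start. MT2A held 7 matches and MT1X held 4, whereas 24.8% of all 35116 RefSeq windows of this length held at least 1 and 1.58% held at least 3. SLC30A1 held 1 match. MTF1, both starts of SLC39A10 and both starts of SLC30A10 held 0, which says only that these letters are not in these windows. The windows of SLC39A10, from 195656708 to 195657225 on chromosome 2, lie inside the gene as GENCODE draws it, whose first position is 195575977, so that transcripts with other starts were not searched. The 3 promoters with matches are shown so that the number and spacing of the matches, in capitals, can be seen. Each sequence runs 5′ to 3′ on the strand of its gene, and a match is a description, not a binding site. MT2A is at chr16:56608334-56608583 on the plus strand, MT1X at chr16:56682220-56682469 on the plus strand and SLC30A1 at chr1:211579162-211579411 on the minus strand.
MT2A: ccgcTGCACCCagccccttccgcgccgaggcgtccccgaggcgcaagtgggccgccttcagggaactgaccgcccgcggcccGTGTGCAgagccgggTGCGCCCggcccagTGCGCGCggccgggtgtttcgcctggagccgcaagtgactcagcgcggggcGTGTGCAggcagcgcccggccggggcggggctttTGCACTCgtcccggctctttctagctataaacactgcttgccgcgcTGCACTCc
MT1X: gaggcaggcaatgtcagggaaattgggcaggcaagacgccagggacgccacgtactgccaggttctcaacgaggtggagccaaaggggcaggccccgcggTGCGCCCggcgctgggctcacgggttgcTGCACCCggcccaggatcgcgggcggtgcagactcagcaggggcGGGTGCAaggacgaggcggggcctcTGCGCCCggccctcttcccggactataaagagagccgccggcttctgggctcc
SLC30A1: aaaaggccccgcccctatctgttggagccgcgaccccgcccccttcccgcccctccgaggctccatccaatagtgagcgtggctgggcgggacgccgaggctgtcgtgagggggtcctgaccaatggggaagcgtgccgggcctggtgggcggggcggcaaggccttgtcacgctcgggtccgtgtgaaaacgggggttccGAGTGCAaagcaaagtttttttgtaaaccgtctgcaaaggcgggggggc

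A second motif, the core of the antioxidant response element bound by NRF2, was searched as TGACNNNGC on both strands of the same windows. MT2A, MT1X and SLC30A1 each held 1 match, and so did 1 of the 2 starts of SLC30A10; 10.9% of all windows held at least 1. No match of this motif overlapped a match of the metal response element in the members' windows.

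The members spanned a wide range of levels. On the deposited FPKM scale, which divides by gene length and so allows genes to be compared, MT2A led in DMSO at 970.1 ± 97.8 FPKM (SD, n = 3) and ranked 28 among all 58735 rows. MT1E followed at 232 ± 11.7 FPKM, with rank 132. MT1X was at 25.0 ± 1.35 FPKM, SLC30A1 at 8.54 ± 0.954, SLC39A10 at 6.63 ± 0.758, MTF1 at 3.84 ± 0.164 and MT1F at 0.837 ± 0.322 (SD, n = 3 each). No pair of neighbours in this order had overlapping ranges in DMSO. In EZA, SLC39A10 stood below MTF1, at 2.78 ± 0.226 and 3.70 ± 0.741 FPKM (SD, n = 3 each), with ranges that overlapped. The ranges of MT1X and SLC30A1 overlapped in EZA too.

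**Figure D1:**
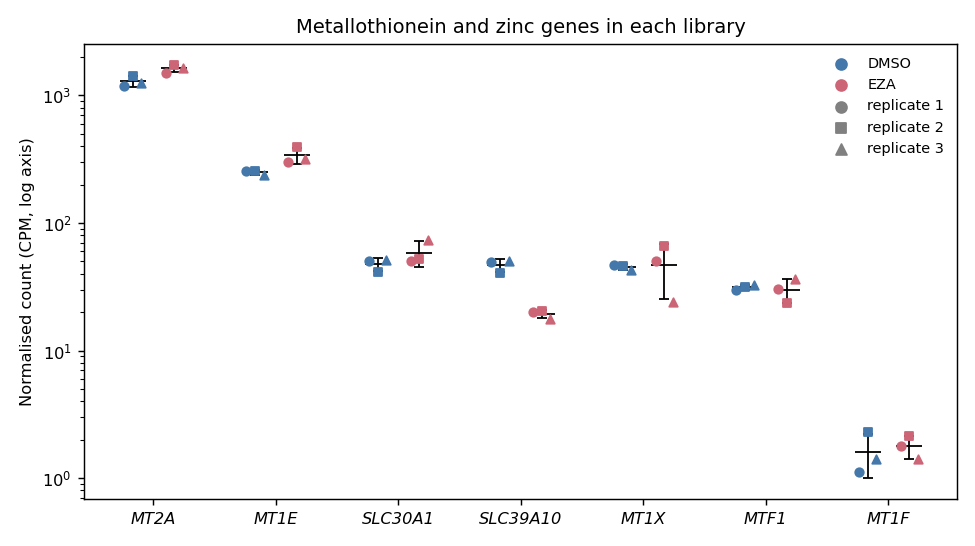
Normalised counts (CPM after TMM scaling) on a logarithmic axis for the 7 tested members, where symbols are replicates, long black lines are means of 3 libraries and whiskers extend 1 SD. SLC39A10 drops from 46.8 to 19.4 CPM on average, MT2A and MT1E sit slightly higher in EZA, and the EZA values of MT1X spread from 23.8 to 65.5 CPM.

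The metallothionein genes lie side by side on chromosome 16, and the cells used only some of them. Reads fell on MT2A (ENSG00000125148, 56608584 to 56609497), MT1E (ENSG00000169715, 56625475 to 56627112), MT1M and MT1X (ENSG00000187193, 56682470 to 56684196), with GRCh38 positions from GENCODE. MT1F (ENSG00000198417, 56657731 to 56660698), between MT1E and MT1X, had 163 counts over the 6 libraries. MT1G (ENSG00000125144, 56666730 to 56668065), the only one of the cluster's coding genes on the minus strand, had 0 of 95568035 counts, which allows up to 0.0314 CPM (3 counts, counting error only). MT1A, MT1H, MT3 and MT4 were at 0 as well, and MT1B had 2 counts. MT1L, annotated as a transcribed pseudogene between MT2A and MT1E, had 7245 counts and a deposited level of 168 ± 8.61 FPKM in DMSO and 196 ± 23.6 FPKM in EZA (SD, n = 3 each). The order of undetected and detected genes along the cluster was the same in both groups, apart from the 2 counts of MT1B, which were both in EZA libraries.

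**Figure D2:**
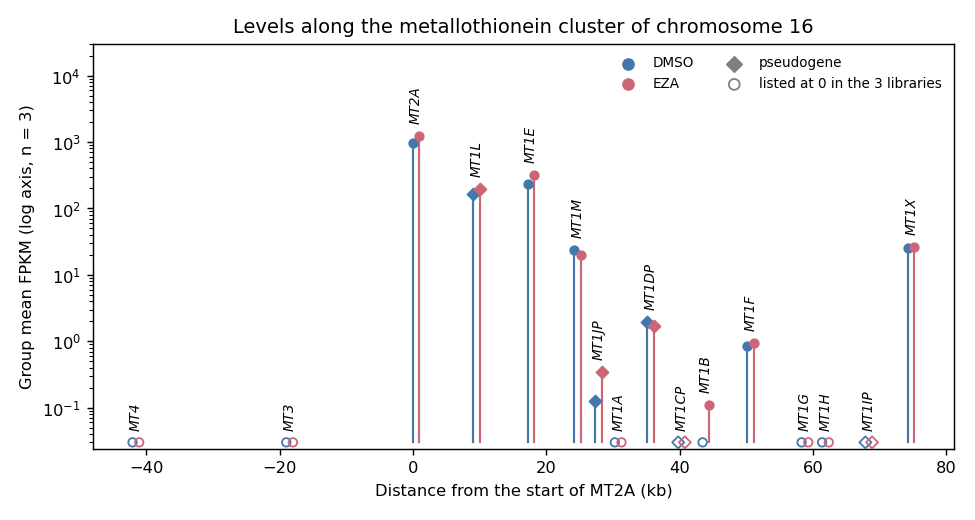
Group mean FPKM (logarithmic axis, n = 3) of each metallothionein gene and pseudogene against its distance in kb from the start of MT2A on chromosome 16. MT2A, MT1L, MT1E, MT1M and MT1X stand above the rest, from 1239 FPKM for MT2A in EZA to 19.6 FPKM for MT1M in EZA, while MT1A, MT1G, MT1H, MT3 and MT4 are listed at 0 in both groups.

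Related metallothionein transcripts share short stretches, which can blur how reads were split among them. Of the distinct 50-base stretches in GENCODE transcripts of MT2A, 4.5% also occur in a transcript of another gene, and the share is 7.1% for MT1E, 1.2% for MT1F and 18.7% for MT1X. With 100-base stretches it is 0% for MT2A, MT1E and MT1F and 11.6% for MT1X, all of it shared with an overlapping long noncoding RNA that had 0 counts. How reads in that overlap were assigned is not known, so the 0 counts cannot show that MT1X lost none. For MT1M the share is 18.2% with 50-base stretches and 0% with 100-base stretches. For MT1L it is 100% with both, and all occur in an overlapping long noncoding RNA without a deposited row. No such stretch of SLC30A1 or SLC39A10 occurs elsewhere. No source used here gives the read length.

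The CPM of a gene is its count divided by the TMM-scaled library total and put on a common scale. MT2A, the most abundant metallothionein in these cells, was at 1178, 1421 and 1255 CPM in DMSO replicates 1 to 3 and at 1501, 1724 and 1651 CPM in EZA replicates 1 to 3. Every EZA library lay above every DMSO library, as it did in 21.0% of all genes tested. The log2 fold change was 0.34 ± 0.15 (SE, 95% interval 0.01 to 0.67; edgeR adjusted p = 0.135). Without EZA replicate 3 it was 0.33, with an edgeR adjusted p of 0.0112. After removal of trends in GC content and transcript length from the counts it was 0.22 (adjusted p = 0.268), and 0.16 (0.0963) with that library left out as well.

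MT1E was at 257, 254 and 236 CPM in DMSO and at 302, 395 and 317 CPM in EZA. Its groups did not overlap either, which held in this direction for 21.0% of all genes tested. The EZA libraries were spread more widely than the DMSO libraries, with replicate 2 highest. The log2 fold change was 0.44 ± 0.14 (SE, 95% interval 0.12 to 0.76; edgeR adjusted p = 0.0593). It passed without EZA replicate 3 (0.49; edgeR adjusted p = 5.28e-04), with no filter on low counts (0.0493), with DESeq2 (0.0271) and, again without EZA replicate 3, after removal of trends in GC content and length (0.00484), and over all alternatives its adjusted p ran from 5.28e-04 to 0.238.

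MT1X was at 47.1, 45.8 and 42.7 CPM in DMSO and at 50.7, 65.5 and 23.8 CPM in EZA. Replicates 1 and 2 of EZA lay above all DMSO libraries and replicate 3 lay below them all. With all 6 libraries the log2 fold change was 0.05 ± 0.30 (SE, 95% interval -0.64 to 0.73; edgeR adjusted p = 0.928), and without EZA replicate 3 it was 0.37 ± 0.12 (SE; edgeR adjusted p = 0.0147). The part that the low mitochondrial share of that library has in this was not tested.

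MT1F was scarce, with 18 to 39 counts in a library. It was at 1.13, 2.30 and 1.41 CPM in DMSO and at 1.78, 2.15 and 1.41 CPM in EZA, and the groups overlapped fully. The 95% interval of its log2 fold change ran from -0.62 to 0.93 (edgeR adjusted p = 0.783).

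Summed over the 12 coding metallothionein genes, the level was 1507, 1747 and 1556 CPM in DMSO and 1870, 2206 and 2014 CPM in EZA. Such a sum is less affected by how reads were split among these genes, but it leaves out pseudogene rows such as MT1L. The groups did not overlap, with every EZA library higher, as in 21.0% of all genes tested. The sum was 1.27-fold higher in EZA (log2 fold change 0.34 ± 0.15, SE; edgeR adjusted p = 0.134). Without EZA replicate 3 it passed, at 0.35 with an edgeR adjusted p of 0.00712, but not when trends in GC content and length were removed as well (0.18; adjusted p = 0.0566). MT2A took 80.0% ± 1.66 of the family's counts in DMSO and 80.1% ± 1.90 in EZA (SD, n = 3 each). MT1E took 15.6% ± 1.30 and 16.6% ± 1.15, and the shares of both genes moved by less than the spread between replicates. MT1X took 2.83% ± 0.262 and 2.29% ± 0.966. MT1M, another gene of the family, took 1.44% ± 0.123 in DMSO and 0.917% ± 0.169 in EZA. This difference in share was larger than the SD of either group, and the shares were not tested.

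Of the 12 metallothioneins 5 were tested, and 0 passed with edgeR, where 17.7% of all genes were called. DESeq2 called MT1E. At an unadjusted p below 0.05 (edgeR), 2431 of all 13503 genes tested were higher and 2245 lower. Of the 5 metallothioneins, 2 were higher and 0 lower at that level. Their median log2 fold change was 0.16, with 0.33 without EZA replicate 3 and -0.12 after trend removal. MT1M, the fifth tested gene of the family and no member, had a mean of 23.0 ± 1.28 CPM in DMSO and of 18.7 ± 4.07 CPM in EZA (SD, n = 3 each; edgeR adjusted p = 0.263). Without EZA replicate 3, MT1E, MT2A and MT1X were higher and MT1M was lower, at -0.43 ± 0.14 on the log2 scale (SE; edgeR adjusted p = 0.0160). That fit called 38.4% of all genes, 19.1% higher and 19.2% lower. MT1M was named after its values were seen.

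MTF1 (ENSG00000188786, chromosome 1, 37809574 to 37859592), the zinc-sensing factor, was at 29.9, 31.7 and 32.7 CPM in DMSO and at 30.6, 23.4 and 36.1 CPM in EZA. The EZA libraries fell on both sides of the DMSO range. The log2 fold change was -0.07 ± 0.17 (SE, 95% interval -0.45 to 0.32; edgeR adjusted p = 0.815). These are transcript levels; MTF1 is known to be controlled mainly by zinc binding and by its move to the nucleus, which were not measured.

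SLC30A1 (ENSG00000170385, chromosome 1, 211571568 to 211579161), the exporter of the plasma membrane, was at 50.6, 41.3 and 51.3 CPM in DMSO and at 50.2, 51.7 and 73.8 CPM in EZA. Replicate 3 of EZA was the highest library, and the other EZA libraries lay within or just above the DMSO range. The log2 fold change was 0.29 ± 0.18 (SE, 95% interval -0.11 to 0.70; edgeR adjusted p = 0.274) and 0.10 without EZA replicate 3 (adjusted p = 0.556). After removal of trends in GC content and transcript length from the counts it was 0.55 (edgeR adjusted p = 0.0577), and with EZA replicate 3 left out as well 0.37 (8.86e-04). SLC30A10 (ENSG00000196660, chromosome 1, 219685427 to 219959018), known chiefly as a manganese exporter, had 0 counts in all 6 libraries, with the same upper limit of 0.0314 CPM.

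Of the 10 genes of the zinc exporter family SLC30, 6 were tested, 1 fell and 0 rose, a share near the 17.7% of all genes called. Their median log2 fold change was -0.15, and it turned to 0.16 after removal of trends in GC content and length. SLC30A7, which loads zinc into the Golgi, was at 56.6, 43.7 and 48.6 CPM in DMSO and at 32.3, 32.7 and 27.6 CPM in EZA. Its log2 fold change of -0.68 ± 0.15 (SE) passed (edgeR adjusted p = 0.0186), but it was not called without DMSO replicate 1 or 3 (adjusted p = 0.103 and 0.0877) or with the GC and length trend removed, where its log2 fold change was -0.29 (0.207). SLC30A9, the tested exporter with the highest CPM, had a mean of 63.9 ± 6.45 CPM in DMSO and of 54.3 ± 13.1 CPM in EZA (SD, n = 3 each; edgeR adjusted p = 0.411). Its log2 fold change was -0.23, and -0.05 without EZA replicate 3.

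SLC39A10 (ENSG00000196950, chromosome 2, 195575977 to 195737702), a zinc importer of the plasma membrane, was at 49.3, 40.4 and 50.7 CPM in DMSO and at 20.1, 20.4 and 17.8 CPM in EZA. The 3 EZA libraries lay close together and all lay below the lowest DMSO library; 21.7% of all genes tested had all EZA libraries below all DMSO libraries. The log2 fold change was -1.27 ± 0.15 (SE, 95% interval -1.60 to -0.94; edgeR adjusted p = 0.00219). The study itself asked for a change of 1 or more on the log2 scale in either direction and a p below 0.05 before adjustment. With the edgeR p-values used here, which may differ from those of the study, SLC39A10 was the only member to meet this. So did 5.73% of all genes tested, 1.96% in the downward direction. With GC and length trends removed, its log2 fold change of -0.93, or -0.86 without EZA replicate 3 as well, fell short of 1. By the adjusted p below 0.05 alone, SLC39A10 passed in each of the 16 alternatives, with an adjusted p of 1.21e-11 to 0.0269. In these the share of all genes called was 17.6% with RLE factors, 17.2% with library size alone, 12.2% with no filter on low counts, 18.6% with a filter of 1 CPM in 3 libraries, 22.9% with DESeq2, 17.1% with limma-voom and 14.6% with the replicate block. The share was 1.60%, 5.71% and 1.84% without DMSO replicates 1, 2 and 3 and 11.4% and 10.6% without EZA replicates 1 and 2. SLC39A10 has a GC content of 37.6%. With these trends removed its log2 fold change was -0.93 ± 0.11 (SE; edgeR adjusted p = 0.00475), in a fit that called 11.7% of all genes; 4.78% were called with the block added and 38.6% without EZA replicate 3.

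**Figure D3:**
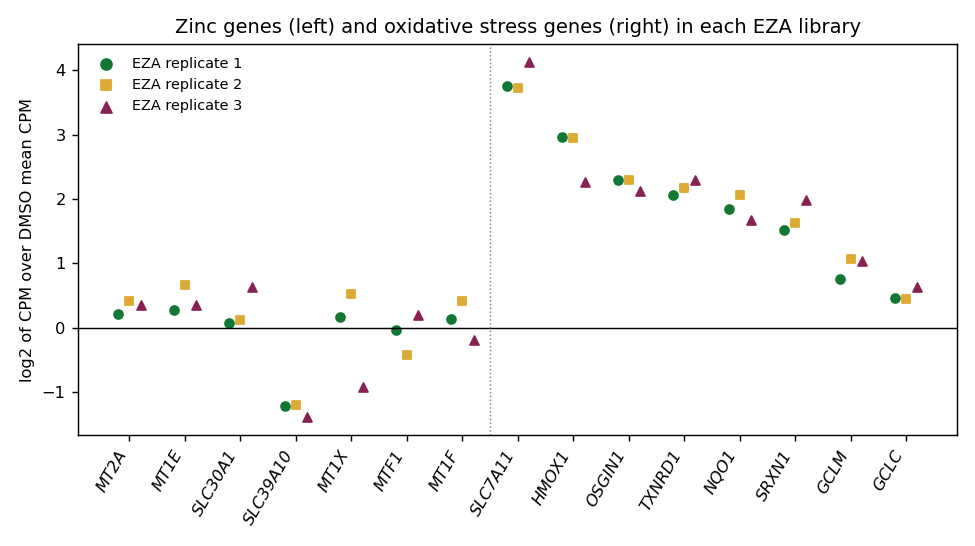
Each symbol is the log2 ratio of 1 EZA library's CPM to the mean CPM of the 3 DMSO libraries, for the 7 tested members left of the dotted line and 8 oxidative stress genes right of it. SLC39A10 lies between -1.39 and -1.20 in all 3 EZA libraries. MT1X lies at 0.17, 0.53 and -0.92, and MT2A at 0.22, 0.42 and 0.36. SLC7A11, HMOX1, OSGIN1 and TXNRD1 lie above 2 in all 3, whereas GCLC lies at 0.46, 0.45 and 0.64.

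The importers as a family did not move one way. Of the 14 genes of the SLC39 family, SLC39A10 included, 11 were tested. Of these 4 rose and 3 fell, beside 9.89% and 7.82% of all genes tested, and their median log2 fold change was 0.25. SLC39A13, an importer of the Golgi and of vesicles, rose from 49.1 ± 3.92 to 94.6 ± 13.2 CPM (SD, n = 3 each; log2 fold change 0.95 ± 0.14, SE; edgeR adjusted p = 0.00640). After trend removal its log2 fold change was 0.53, and with the replicate block added it was not called (adjusted p = 0.0567). SLC39A14, which also carries iron and manganese and is the most abundant of the family here by CPM, rose from 234 ± 9.50 to 325 ± 32.1 CPM. SLC39A11 and SLC39A4, the latter the importer for dietary zinc in the gut, rose by 0.94 ± 0.26 and 0.66 ± 0.20 on the log2 scale (SE; edgeR adjusted p = 0.0398 and 0.0497). EZA replicate 3 was the highest library for SLC39A11, at 45.7 CPM beside 24.4 and 23.1 CPM, and without it the log2 fold change was 0.56 (edgeR adjusted p = 0.00133). That of SLC39A4 was 0.47 without this library (edgeR adjusted p = 0.00392). Neither SLC39A11 nor SLC39A4 was called with library size alone (adjusted p = 0.0516 and 0.0682), limma-voom (0.0537 and 0.0533) or trend removal (0.0832 and 0.129). SLC39A14 was not called with library size alone either (0.0572).

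SLC39A8, a close relative of SLC39A14, fell from 54.5 ± 3.48 to 37.2 ± 3.15 CPM, and SLC39A6, the nearest relative of SLC39A10, fell from 133 ± 11.6 to 94.0 ± 8.85 CPM (SD, n = 3 each). Their log2 fold changes were -0.55 ± 0.13 and -0.50 ± 0.13 (SE; edgeR adjusted p = 0.0247 and 0.0343). Without EZA replicate 3, 4 importers rose and 3 fell, SLC39A10 among the latter, with a median of 0.01. That fit called 19.1% of all genes higher and 19.2% lower. Without DMSO replicate 1 the calls of all 6 genes other than SLC39A10 were lost (edgeR adjusted p = 0.0554 for SLC39A13 up to 0.197 for SLC39A4). Those of all but SLC39A13 were lost without DMSO replicate 2 or 3 as well. SLC39A4, SLC39A6 and SLC39A8 lost theirs also without EZA replicate 1 or 2, and SLC39A14 without EZA replicate 1. With the GC and length trend removed, 2 importers rose and 2 fell, SLC39A10 among the latter, in a fit that called 11.7% of all genes.

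**Figure D4:**
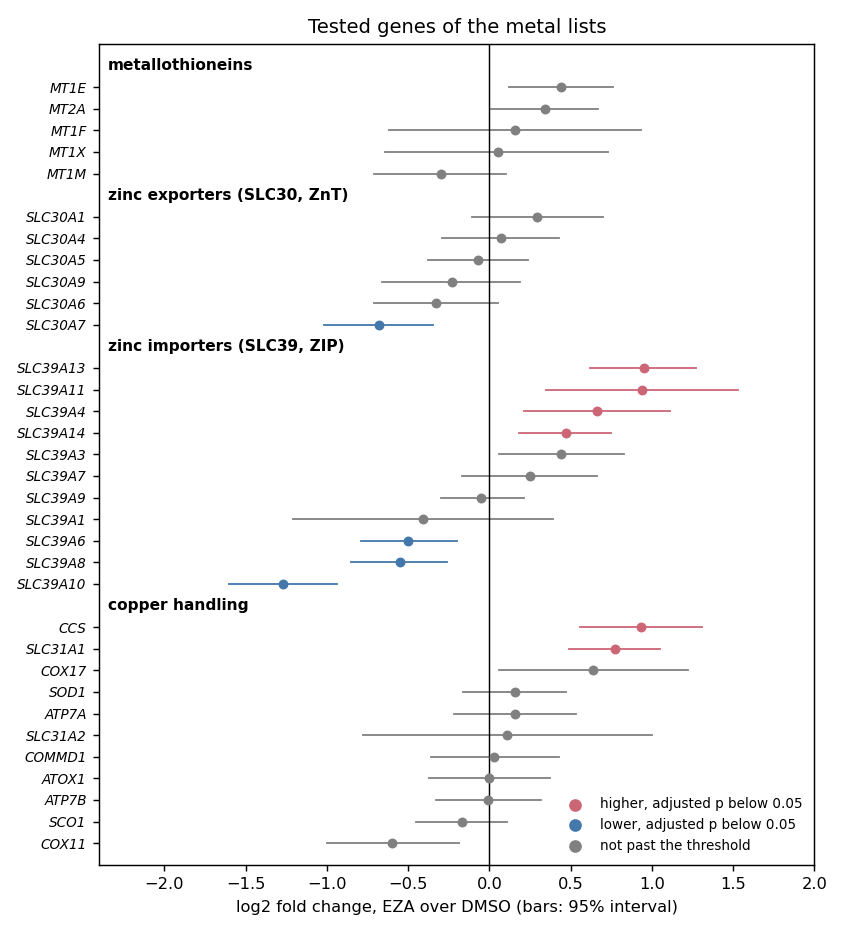
Log2 fold changes, EZA over DMSO, with 95% intervals for the tested metallothioneins, zinc exporters, zinc importers and copper genes; red and blue mark genes higher and lower at an adjusted p below 0.05. SLC39A10, at -1.27, is lowest, SLC39A13, SLC39A11 and CCS lie between 0.93 and 0.95, and no metallothionein passed.

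Further genes that MTF1 is reported to control, mostly in mouse, formed a list, which shares GCLC with the oxidative stress list below. Of these 7 genes 6 were tested, 2 rose and 0 fell, beside 9.89% and 7.82% of all genes. Their median log2 fold change was 0.27, and 0.16 without EZA replicate 3. After trend removal 1 of them rose, GCLC, in a fit that called 11.7% of all genes. GCLC, the catalytic subunit of the enzyme that starts glutathione synthesis, rose from 49.0 ± 2.22 to 70.3 ± 5.29 CPM (SD, n = 3 each; edgeR adjusted p = 0.0248). CEBPA, a transcription factor, rose from 10.2 ± 1.97 to 15.8 ± 1.12 CPM (edgeR adjusted p = 0.0439), but its log2 fold change of 0.62 became 0.10 once the GC and length trend was taken out (adjusted p = 0.622). GCLC was not called without DMSO replicate 1, 2 or 3, and CEBPA only held without EZA replicate 3 among the left-out libraries. SELENOW, NDRG1, CSRP1 and PGF had log2 fold changes of 0.23, -0.09, 0.13 and 0.32 and did not pass.

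Copper, the other metal that metallothioneins buffer, is handled by transporters and chaperones of its own. Of 12 such genes 11 were tested, 2 rose and 0 fell, a share near the 17.7% of all genes called, and the median log2 fold change was 0.11. Without EZA replicate 3, 2 rose and 1 fell, in a fit that called 38.4% of all genes. After trend removal 3 rose and 0 fell, in a fit that called 11.7%. SLC31A1, the main copper importer, was at 151, 143 and 148 CPM in DMSO and at 257, 275 and 224 CPM in EZA, and rose by 0.77 ± 0.12 on the log2 scale (SE; edgeR adjusted p = 0.00753). CCS, the chaperone that loads copper into superoxide dismutase 1, rose from 17.8 ± 3.47 to 34.0 ± 0.643 CPM (SD, n = 3 each; edgeR adjusted p = 0.0102); its log2 fold change of 0.93 became 0.58 after trend removal, and its call was lost with the replicate block added to that (adjusted p = 0.0646). Both calls were lost without DMSO replicate 1 or 3, with an adjusted p of up to 0.0635. The gene that fell without EZA replicate 3 was COX11, which acts in copper delivery to cytochrome c oxidase. It was at 28.3, 25.7 and 30.7 CPM in DMSO and at 20.8, 20.9 and 14.1 CPM in EZA, and its log2 fold change over all libraries, -0.60 ± 0.18 (SE), just missed the threshold (edgeR adjusted p = 0.0503). Without that library it was -0.43 (adjusted p = 0.00869). COX11 was named after its values were seen. The copper pumps ATP7A and ATP7B had log2 fold changes of 0.16 and -0.01.

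Oxidative stress genes give a scale for the metallothionein values in the same libraries. All 8 genes of this list rose, with a median log2 fold change of 2.03. Its members include genes already known to be high in these samples. Neither the count nor the distance of these genes from the metallothioneins is therefore independent evidence, and the cause of that distance was not tested. HMOX1, heme oxygenase 1, a gene that cadmium, arsenic and oxidants induce in many cells together with metallothioneins, rose from 93.0 ± 3.92 to 632 ± 157 CPM (SD, n = 3 each). The 95% interval of its log2 fold change, 2.31 to 3.22, lay above those of MT2A (0.01 to 0.67) and MT1E (0.12 to 0.76). The log2 fold change of HMOX1 was 2.76, and 2.96 without EZA replicate 3. TXNRD1, thioredoxin reductase 1, had an interval of 1.84 to 2.52. Not all genes of the list stood apart. The intervals of GCLC (0.24 to 0.79) and GCLM (0.64 to 1.28) overlapped those of both metallothioneins.

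The genes whose profile over the 6 libraries was nearest to that of SLC39A10 were ANLN, ARHGAP29 and CALD1, by the Euclidean distance of log2 CPM after subtraction of each gene's DMSO mean (0.148, 0.161 and 0.172). ANLN encodes an actin-binding protein of the cleavage furrow and CALD1 the actin-binding protein caldesmon. ARHGAP29 went from 28.4 ± 4.46 to 12.0 ± 1.56 CPM and CALD1 from 44.9 ± 4.30 to 19.3 ± 1.78 CPM (SD, n = 3 each). The nearness describes these 6 libraries only.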

How the data were processed

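Poly(A) RNA of RKO cells was sequenced as non-stranded libraries, per the labels' protocols. Per the submitters' processing notes, the build was GRCh38 (hg38) and the tools included HISAT2, featureCounts, FastQC and DESeq2; no source used here gives options, versions or annotation. For every Ensembl gene the authors deposited the whole-number count in each library. Their deposited FPKM values were used only to compare levels between genes.

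Groups came from the sample titles. The 9 members and the gene lists were chosen with earlier results of these data known. Symbols, positions, GC content and transcript length came from GENCODE 44; 58207 of 58735 identifiers matched, and of identifiers with the same symbol only that with the most counts kept it. edgeR's quasi-likelihood test (robust, two-sided, TMM scaling, no covariate) was run on all 6 libraries over the 13503 genes that filterByExpr keeps, and p-values were adjusted over these. CPM use TMM-scaled totals of tested genes, and standard errors and 95% intervals were derived from the F statistic. Separate cultures are not described, so p-values cover only the spread among these libraries, which may be technical. Besides the members, named genes are the called genes of each list (up to 4 each way by adjusted p), the most abundant gene of the metallothionein, exporter and importer lists, and the 3 nearest profiles of each called member; other genes named complete a list, or were picked after their values were seen.

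Alternatives were RLE or no scaling factors, other filters, limma-voom, DESeq2, a block for the replicate number, removal of GC and length trends (lowess, span 0.3) and each library left out; trend removal without EZA replicate 3 was added after seeing the data. The fits were tested on simulated data. Scripts ran in Python 3.11.15 and in R 4.3.3 with DESeq2 1.42.0, limma 3.58.1 and edgeR 4.0.16.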

Additional observations from a re-analysis of the deposited data

How the results depend on the processing

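SLC39A10 kept its direction and its call in all 16 alternatives. Over all genes, calls numbered 2392 (1336 higher and 1056 lower), 1059 higher and 1270 lower with library size alone, 1581 with the GC and length trend removed, 645 with that trend removed and the replicate block, 220 to 5289 with 1 library left out (lowest without DMSO replicate 1, highest without EZA replicate 3) and 5328 with the trend removed and without EZA replicate 3, an alternative chosen after seeing the data. The cause was not tested. Among the members 1 was called, 2 with no filter on low counts and with DESeq2 (MT1E was added), 1 to 4 with 1 library left out and 3 with the trend removed and without EZA replicate 3 (MT1E and SLC30A1 were added). The metallothionein sum had a log2 fold change of 0.28 to 0.42 with 1 library left out, and passed only without EZA replicate 3 (0.35); it was 0.22 with the trend removed, with or without the block, and 0.18 (adjusted p = 0.0566) with the trend removed and without EZA replicate 3; with the pseudogene rows added it was 0.34. The replicate number as a block gave 1970 calls. Samples with the same number correlated at 0.033, -0.175 and 0.027 in their deviations from the group means. Not every sample correlated best with its own number. With 3 libraries in a group the deviations are tied to each other, so these values cannot decide whether equal numbers mark pairs.

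Signs turned only in genes that had missed the threshold. MT1X was at -0.01 with library size alone, -0.06 with limma-voom, -0.06 with the replicate block, -0.13 with the trend removed, -0.22 with the trend removed and the replicate block, and -0.27 to 0.37 with 1 library left out (-0.01 without EZA replicate 1). MT1F was at -0.12 with the trend removed, -0.11 with the block added, -0.00033 with the trend removed and without EZA replicate 3, and -0.05 to 0.51 with 1 library left out (-0.05 without DMSO replicate 1, -0.01 without EZA replicate 2). MTF1 was at 0.04 and 0.03 with the trend removed, without and with the replicate block, and -0.22 to 0.09 with 1 library left out (0.09 without EZA replicate 2). SLC30A9, at -0.23 over all libraries, was at 0.08 with the trend removed and 0.05 with the block added. With the trend removed and without EZA replicate 3, SLC30A9 was at 0.29 and was called higher (edgeR adjusted p = 0.00366). MT1F had only 18 to 39 counts in a library, and MT1G and SLC30A10 had 0.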
